A study of Mus musculus with 18 samples.

Results

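The genes described here, 42 in all, are known from fibroblasts of the meninges, the membranes that wrap the brain, and encode matrix proteins, signals, transcription factors, transporters and junction proteins. They were measured in the embryonic mouse cortex, out of 23038 gene symbols in the deposited count table. They were taken by symbol from a given list, and all 42 were found. Part of that list was picked after the genes were seen to be higher in cortex lacking Nova2, so the genes were partly chosen by their levels in Nova2-/- mice and wild-type littermates, which are given below as a description with no test. The mice lacking Nova1 and their wild-type littermates were not used in that choice.

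NOVA1 and NOVA2 are neuronal RNA-binding proteins that control alternative splicing, and the study compared mice lacking each of them. RNA-seq was performed on cortex of CD1-background embryos at E18.5, with 3 mice in each of 4 groups: Nova2-/-, the wild-type mice numbered 1 to 3, Nova1-/-, and the wild-type mice numbered 4 to 6. Wild-type mice 4 to 6 were taken as the littermates of the Nova1-/- mice because the same numbers were used for the midbrain and hindbrain tissue collected with Nova1-/-, and mice 1 to 3 as those of the Nova2-/- mice. The Nova2 allele had an IRES-Cre cassette in place of its first coding exon, after Flp had removed the neomycin cassette, and both alleles were deleted in the whole animal rather than in neurons alone.

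The meninges consist of the pia, the arachnoid and the dura, and lie directly on the cortical surface. Their fibroblasts secrete fibrillar collagens and proteoglycans, anchor the basement membrane at the pial surface, and release retinoic acid, BMPs and IGF2 that act on the cells beneath. The arachnoid barrier layer is sealed by tight junctions that contain CLDN11, and fibroblast layers are coupled by the connexins GJB2 and GJB6. A dissected cortex can carry some meninges with it, and in bulk tissue fewer cells of a type and less RNA per cell cannot be told apart.

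The libraries held between 16518172 and 31362018 counts, and between 18397 and 19396 genes had a count in 11 of the 12 libraries, against 21791 in wild-type mouse 2, the shallowest one. Nova1 stood at 0.0340 to 0.211 CPM, the count scaled to a common library size, in the 3 Nova1-/- mice and at 41.4 to 92.8 CPM in the other mice. Nova2, of which the first coding exon was replaced, stood at 17.0 to 21.6 CPM in the Nova2-/- mice and at 31.5 to 40.8 CPM in their wild-type littermates. Markers of other cell types were set beside the 42 genes. No separate markers of meningeal fibroblasts were counted, so the label of the gene list was not checked. Markers of cortical neurons summed to 3319 to 4162 CPM over the 12 mice, and the 42 genes together held 0.0659% to 0.231% of the TMM-scaled library size. No gene of the marker lists stood at 0 in all mice, and markers of bone and cartilage summed to 15.1 to 31.9 CPM.

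Summed over the 42 genes, the 3 wild-type littermates of the Nova2-/- mice were low and every other cortex was high. The sums were 659, 806 and 1388 CPM in wild-type mice 1 to 3, and 2246, 2087 and 2138 CPM in Nova2-/- mice 1 to 3. They were 2147, 1938 and 2314 CPM in wild-type mice 4 to 6, and 1915, 1940 and 1686 CPM in Nova1-/- mice 1 to 3. Nova2-/- mice thus had 2.27 times the level of their own littermates and 1.01 times that of the wild-type mice of the Nova1 litters. The wild-type mice of the Nova1 litters had 2.24 times the level of the wild-type mice of the Nova2 litters. Low levels in wild-type mice 1 to 3 helped to choose part of the genes, so both ratios to these mice are descriptions only. Wild-type mouse 3 lay nearest to the high groups, and without it the ratio of Nova2-/- to wild-type was 2.95 and the ratio between the sets of wild-type mice was 2.91. Litter set and any other difference between the 2 sets of mice cannot be told apart.

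**Figure D1:**
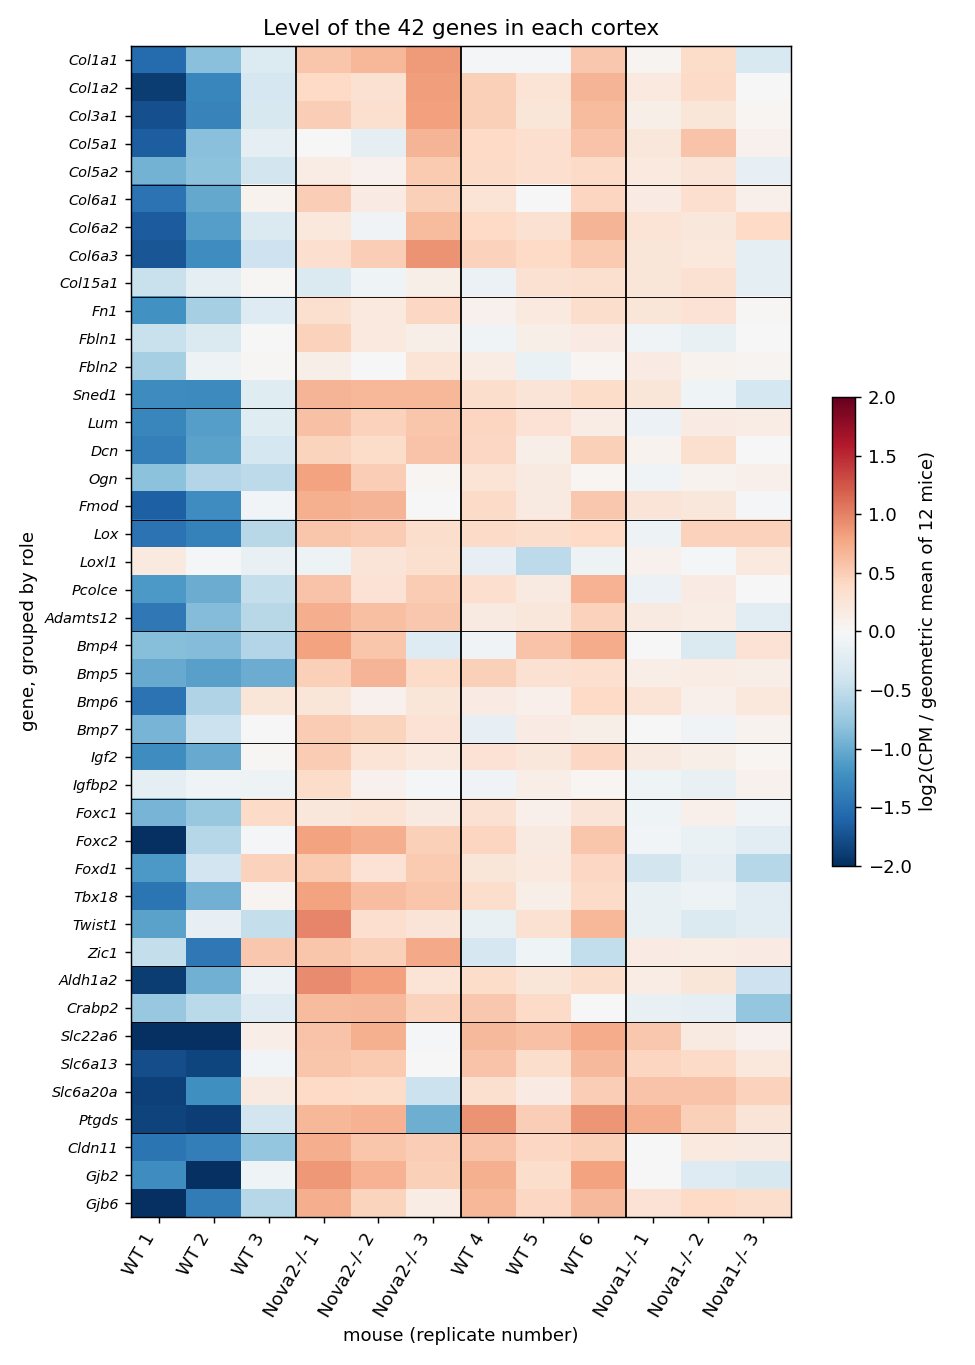
Level of each of the 42 genes in each mouse, as the log2 of its CPM over its geometric mean across the 12 mice. The colour scale ends where its bar does, and values beyond it take the end colours. Columns are mice in 4 groups of 3 and rows are genes ordered by role. Wild-type mice 1 and 2 are low for most genes, wild-type mouse 3 is intermediate, and the 9 other mice are higher.

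Gene by gene, all 42 passed the filter on low counts in both comparisons. Against their own littermates, the log2 fold changes of the Nova2-/- mice ran from 0.12 to 1.76 with a median of 1.24, and all 42 were above 0. The median over the 15691 genes tested was 0.01, and 51.8% of them were above 0. In 32 of 42 genes every Nova2-/- mouse was above every littermate, and 12.5% of all genes tested met this. At a false discovery rate (FDR) below 0.05 by edgeR's quasi-likelihood test, 11 of 42 were called higher, against 0.695% of all genes tested. Requiring also a log2 fold change of 1 or more, 10 were called, against 0.204%. Since this comparison chose genes, nothing was read from these counts. The number called depended on single mice, and so did the number over all genes tested, which was 166 in either direction with all mice. Without wild-type mouse 3, 35 of the 42 and 1433 of all genes were called. Without wild-type mouse 1 these counts were 3 and 24, and without wild-type mouse 2 they were 2 and 26. Without Nova2-/- mice 1, 2 or 3 in turn, 0, 0 and 3 of the 42 were called, and 8, 7 and 22 of all genes.

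In the Nova1 litters, which the choice of genes did not use, most of the 42 genes were slightly lower in the knockout, and none passed the test. The log2 fold changes ran from -0.82 to 0.45 with a median of -0.23, beside a median of 0.00 over the 15901 genes tested. Of the 42 genes, 38 were below 0, against 49.4% of all genes. The quasi-likelihood test of edgeR, adjusted over all genes by the method of Benjamini and Hochberg, called 0 of 42 at FDR below 0.05, and 0.0126% of all genes tested, which were 2 genes. The lowest adjusted p of edgeR's quasi-likelihood test among the 42 was 0.282, for Gjb2. At an unadjusted p below 0.05 in the same edgeR fit, 15 of 42 were lower, against 3.67% of all genes, and 2 were higher, Zic1 and Loxl1, against 3.77%. Every Nova1-/- mouse was below every littermate for 17 of 42 genes, against 6.8% of all genes tested, and above for 2, again Zic1 and Loxl1, against 6.69%. DESeq2 called 2 of the 42, Zic1 and Gjb2, and 38 genes overall. The 42 genes largely varied together over the 12 mice, as given below, so these counts of genes are not counts of separate observations. The summed level in Nova1-/- mice was 0.866 times that of their littermates. The sums of the groups overlapped, with Nova1-/- mouse 2 at 1940 CPM and wild-type mouse 5 at 1938 CPM.

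**Figure D2:**
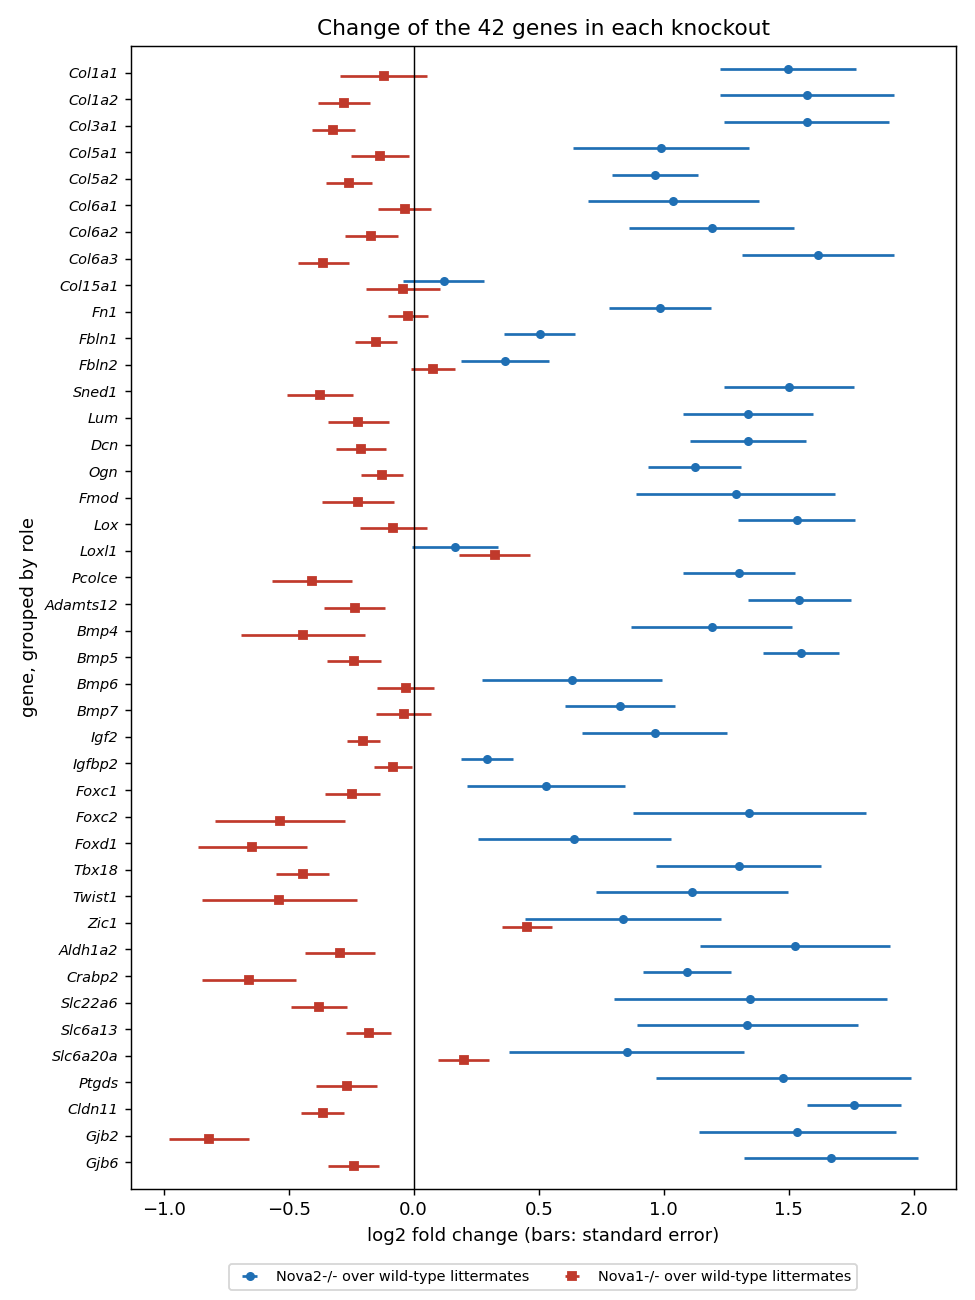
Log2 fold change of each of the 42 genes, with its standard error, in Nova2-/- mice (circles) and Nova1-/- mice (squares) over their own wild-type littermates, 3 mice a group. All 42 circles lie above 0, between 0.12 and 1.76, while 38 of 42 squares lie below 0 and none of the squares passed the adjusted threshold.

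Levels of different genes were compared per kilobase of exon. On this scale, the highest levels of the 42 genes in the wild-type mice of the Nova1 litters were those of Ptgds at 224 CPM per kb, Igfbp2 at 53.3, Col3a1 at 44.9 and Dcn at 31.9. The lowest were those of the transcription factor genes Foxc2 at 0.43 CPM per kb, Twist1 at 0.57 and Foxd1 at 0.78. The fibrillar collagens form the tensile fibres of the meninges. Col3a1, the chain of type III collagen, stood at 81.3, 108 and 220 CPM in wild-type mice 1 to 3, 387, 342 and 484 in Nova2-/- mice, 380, 325 and 426 in wild-type mice 4 to 6, and 298, 325 and 282 in Nova1-/- mice. Wild-type mice 1 to 3 lay below the 9 other mice for Col3a1, and the Nova1-/- mice lay below their own littermates, with the nearest values of those groups both at 325 CPM. Its log2 fold change was 1.57 ± 0.33 (SE) in Nova2-/- and -0.32 ± 0.09 in Nova1-/-.

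Type I collagen is a trimer of the products of Col1a1 and Col1a2. Col1a2 stood at 37.3, 56.0 and 110 CPM in wild-type mice 1 to 3 and at 184, 172 and 247 CPM in Nova2-/- mice, with 167 to 223 CPM in wild-type mice 4 to 6 and 140 to 181 CPM in Nova1-/- mice. Col1a1 stood at 11.6, 18.7 and 27.8 CPM in wild-type mice 1 to 3 and at 49.3, 53.3 and 60.8 CPM in Nova2-/- mice. For Col1a1 the Nova2-/- mice were also above all 3 wild-type mice of the Nova1 litters, which stood at 32.7, 33.0 and 48.6 CPM. This was so for 8 of the 42 genes (Col1a1, Sned1, Lum, Loxl1, Adamts12, Bmp7, Tbx18 and Zic1), against 19.4% of all genes tested in both fits, and the reverse was so for 0 of 42, against 18.6%. Col5a1 and Col5a2 encode chains of type V collagen, which sets fibre diameter, and their log2 fold changes in Nova2-/- were 0.99 ± 0.35 and 0.96 ± 0.17.

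Among the other collagens, the type VI chains Col6a1, Col6a2 and Col6a3, which make beaded filaments around cells, had log2 fold changes of 1.04, 1.19 and 1.62 in Nova2-/- mice and -0.04, -0.17 and -0.36 in Nova1-/- mice. Col15a1, a basement-membrane collagen that vessels also make, stood apart from them. It was at 10.5, 12.6 and 14.5 CPM in wild-type mice 1 to 3 and at 11.7, 13.4 and 15.5 CPM in Nova2-/- mice, so that the groups overlapped, and its log2 fold change was 0.12 ± 0.16.

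Of the matrix glycoproteins, Fn1 encodes fibronectin and stood at 62.0, 90.7 and 119 CPM in wild-type mice 1 to 3 and at 180, 164 and 191 CPM in Nova2-/- mice, with 146 to 182 CPM in all mice of the Nova1 litters. Sned1, a secreted matrix protein with fibronectin type III domains, stood at 5.43, 5.36 and 10.9 CPM in wild-type mice 1 to 3 and at 20.7, 20.5 and 20.5 CPM in Nova2-/- mice. The 3 Nova2-/- values of Sned1 were nearly identical and lay above the 15.5 to 16.8 CPM of wild-type mice 4 to 6. The exons of Sned1 overlapped those of Mterfd2 on the other strand over 19.5% of their length. The library kit does not mark strand, so the counts of Sned1 are uncertain. The fibulins Fbln1 and Fbln2, which bridge basement membranes and elastic fibres, differed less, with log2 fold changes of 0.50 ± 0.14 and 0.36 ± 0.18 in Nova2-/- mice. For Fbln2 the Nova2-/- mice overlapped with their littermates.

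The small leucine-rich proteoglycans Lum, Dcn, Ogn and Fmod bind collagen and regulate the assembly of its fibres, and all 4 had Nova2-/- mice wholly above their littermates. Dcn, encoding decorin, stood at 18.9, 23.1 and 37.9 CPM in wild-type mice 1 to 3, at 62.4 to 72.3 CPM in Nova2-/- mice, at 52.8 to 67.4 CPM in wild-type mice 4 to 6 and at 49.0 to 60.3 CPM in Nova1-/- mice. Ogn and Fmod were lowest in Nova2-/- mouse 3. Ogn stood at 55.1, 44.2 and 32.3 CPM and Fmod at 7.29, 7.12 and 4.39 CPM in Nova2-/- mice 1 to 3, the last close to the 4.29 CPM of wild-type mouse 3.

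The genes for collagen processing included Lox, the oxidase that starts collagen cross-linking, Pcolce, an enhancer of procollagen cleavage, and Adamts12, a matrix metalloprotease. Lox stood at 4.75, 5.24 and 9.07 CPM in wild-type mice 1 to 3 and at 19.4, 18.8 and 17.0 CPM in Nova2-/- mice. Wild-type mice 4 to 6, at 17.0 to 17.5 CPM, lay at the Nova2-/- level. Pcolce and Adamts12 had log2 fold changes of 1.30 ± 0.22 and 1.54 ± 0.21 in Nova2-/- mice. Loxl1, a relative of Lox that acts on elastic fibres, had another pattern, with 6.93, 5.96 and 5.46 CPM in wild-type mice 1 to 3 against 5.65, 7.21 and 7.54 CPM in Nova2-/- mice. Loxl1 was also one of the 2 genes higher in every Nova1-/- mouse (5.87 to 6.93 CPM) than in every littermate (4.22 to 5.64 CPM), with a log2 fold change of 0.32 ± 0.14 and an adjusted p of 0.66 by edgeR's quasi-likelihood test.

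Of the secreted signals, the BMP ligands Bmp4, Bmp5, Bmp6 and Bmp7 act through BMP receptors on neighbouring cells. Bmp5 had little spread within groups. It stood at 3.17, 3.01 and 3.21 CPM in wild-type mice 1 to 3, at 8.85, 10.2 and 8.34 CPM in Nova2-/- mice, at 8.91, 7.86 and 8.05 CPM in wild-type mice 4 to 6 and at 7.02, 7.10 and 6.93 CPM in Nova1-/- mice. Wild-type mouse 3, which was above mice 1 and 2 in most of the genes, was at 1.04 times their mean for Bmp5. In Nova1-/- mice the log2 fold change of Bmp5 was -0.24 ± 0.11, with no overlap with the littermates and an adjusted p of 0.672 by edgeR's quasi-likelihood test. The exons of Bmp5 overlapped those of Gm16662 on the other strand over 46.7% of their length, and since the library kit does not mark strand, reads of the pair cannot be told apart. Bmp6 overlapped between Nova2-/- mice (8.37 to 9.40 CPM) and their littermates (2.85, 5.24 and 9.37 CPM), while Bmp4 and Bmp7 did not.

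Among the IGF genes, Igf2, a growth factor made by the leptomeninges and the choroid plexus, stood at 35.8, 42.3 and 85.7 CPM in wild-type mice 1 to 3, at 120, 102 and 96.6 CPM in Nova2-/- mice, at 104, 99.0 and 113 CPM in wild-type mice 4 to 6 and at 96.4, 91.6 and 86.8 CPM in Nova1-/- mice. Its log2 fold change in Nova1-/- was -0.20 ± 0.07. Igfbp2, which binds IGFs and is also made by neural cells, varied little, from 83.4 to 124 CPM over all 12 mice.

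The transcription factors included Foxc1, Foxc2 and Foxd1, forkhead factors of meningeal and mural precursors, Tbx18 and Twist1 of mesenchyme, and Zic1, which is expressed in meninges and in neural progenitors. Foxc1, required for the meninges to form, stood at 4.40, 4.94 and 10.9 CPM in wild-type mice 1 to 3 and at 9.74, 10.1 and 9.49 CPM in Nova2-/- mice. Wild-type mouse 3 was above all 3 Nova2-/- mice for Foxc1, and the groups overlapped. Tbx18 stood at 3.88, 5.48 and 11.0 CPM in wild-type mice 1 to 3 and at 15.7 to 18.5 CPM in Nova2-/- mice, with 11.5 to 13.9 CPM in wild-type mice 4 to 6 and 9.21 to 9.88 CPM in Nova1-/- mice. Its log2 fold change of -0.44 ± 0.10 in Nova1-/- had an adjusted p of 0.404 by edgeR's quasi-likelihood test. Foxc2 and Twist1 were at 1.56 CPM or less in every mouse, with 5 to 41 counts behind each value of Foxc2 and 9 to 37 behind each value of Twist1. Foxd1 had log2 fold changes of 0.64 ± 0.39 in Nova2-/- and -0.65 ± 0.22 in Nova1-/-, the first with overlapping groups.

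Zic1 departed from the other genes. It stood at 20.6, 10.7 and 42.05 CPM in wild-type mice 1 to 3, at 42.3, 40.2 and 48.9 CPM in Nova2-/- mice, at 22.9, 27.1 and 20.4 CPM in wild-type mice 4 to 6 and at 32.3, 31.9 and 32.1 CPM in Nova1-/- mice. Both knockouts were thus above the wild-type mice of the Nova1 litters, which for most of the other genes lay at the Nova2-/- level. The log2 fold change of Zic1 in Nova1-/- was 0.45 ± 0.10, with an adjusted p of 0.341 by edgeR's quasi-likelihood test and 0.0193 by DESeq2, against 0.149 to 1 over the other alternatives.

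Retinoic acid is made in the meninges by ALDH1A2 and carried to its receptors by CRABP2. Aldh1a2 stood at 5.50, 10.5 and 18.7 CPM in wild-type mice 1 to 3, at 39.4, 36.2 and 24.7 CPM in Nova2-/- mice, at 24.1 to 26.3 CPM in wild-type mice 4 to 6 and at 15.3 to 24.2 CPM in Nova1-/- mice. Nova2-/- mouse 3 was at the level of the Nova1 litters and the other Nova2-/- mice were above it. Crabp2 was at 3.29, 3.85 and 4.65 CPM in wild-type mice 1 to 3 and at 7.67 to 8.73 CPM in Nova2-/- mice. In the Nova1 litters it was at 8.09, 7.27 and 5.64 CPM in wild-type mice and at 5.05, 4.89 and 3.25 CPM in Nova1-/- mice, a log2 fold change of -0.66 ± 0.19 with an adjusted p of 0.503 by edgeR's quasi-likelihood test.

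Slc22a6 encodes an organic anion transporter, Slc6a13 a GABA transporter and Slc6a20a a proline transporter of the leptomeninges, while Ptgds encodes the prostaglandin D synthase secreted by arachnoid and pial cells. In wild-type mouse 3 these 4 genes were at 2.84 to 4.62 times the mean of wild-type mice 1 and 2, the highest ratios of the 42 genes. Ptgds stood at 60.2, 58.9 and 169 CPM in wild-type mice 1 to 3 and at 343, 349 and 110 CPM in Nova2-/- mice, so that Nova2-/- mouse 3 was below wild-type mouse 3. It was at 304 to 403 CPM in wild-type mice 4 to 6 and at 259 to 360 CPM in Nova1-/- mice. Slc22a6 was at 3.88, 4.09 and 18.4 CPM in wild-type mice 1 to 3 and at 24.8, 27.3 and 16.2 CPM in Nova2-/- mice. Slc6a20a overlapped in the same way, and for Slc6a13 the gap between wild-type mouse 3 (30.3 CPM) and Nova2-/- mouse 3 (31.3 CPM) was narrow. Slc6a20a has a close paralogue, Slc6a20b, and 16.8% of its exons overlapped genes on the other strand, so its counts are uncertain.

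The median over the 3 junction genes, as a log2 fold change, was 1.67 in Nova2-/- mice, the highest of any role there, and -0.36 in Nova1-/- mice. Cldn11 stood at 6.57, 6.92 and 10.5 CPM in wild-type mice 1 to 3, at 29.7, 26.5 and 25.2 CPM in Nova2-/- mice, at 26.7, 24.1 and 25.1 CPM in wild-type mice 4 to 6 and at 18.1, 20.5 and 20.4 CPM in Nova1-/- mice. Its log2 fold change of 1.76 ± 0.19 in Nova2-/- was the highest of the 42 genes. In Nova1-/- mice it was -0.36 ± 0.09, with no overlap with the littermates and an adjusted p of 0.404 by edgeR's quasi-likelihood test. Cldn11 is also expressed by oligodendrocytes, whose markers summed to 209 to 240 CPM in wild-type mice 1 to 3 and to 188 to 209 CPM in Nova2-/- mice, a range no higher than that of their littermates.

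Gjb2, a connexin gene of the fibroblast layers, stood at 1.62, 0.963 and 3.62 CPM in wild-type mice 1 to 3, at 7.02, 6.18 and 5.32 CPM in Nova2-/- mice, at 6.26, 4.89 and 6.69 CPM in wild-type mice 4 to 6 and at 3.83, 3.23 and 3.08 CPM in Nova1-/- mice. In the Nova1 litters its log2 fold change was -0.82 ± 0.16, the largest decrease among the 42 genes. It did not pass edgeR's quasi-likelihood test (adjusted p 0.282) but had an adjusted p of 0.0401 by DESeq2, against 0.110 to 1 over the other alternatives. Gjb6, 18.6 kb away from Gjb2 on chromosome 14, stood at 1.94, 3.19 and 5.69 CPM in wild-type mice 1 to 3 and at 13.9, 11.4 and 9.31 CPM in Nova2-/- mice.

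**Figure D3:**
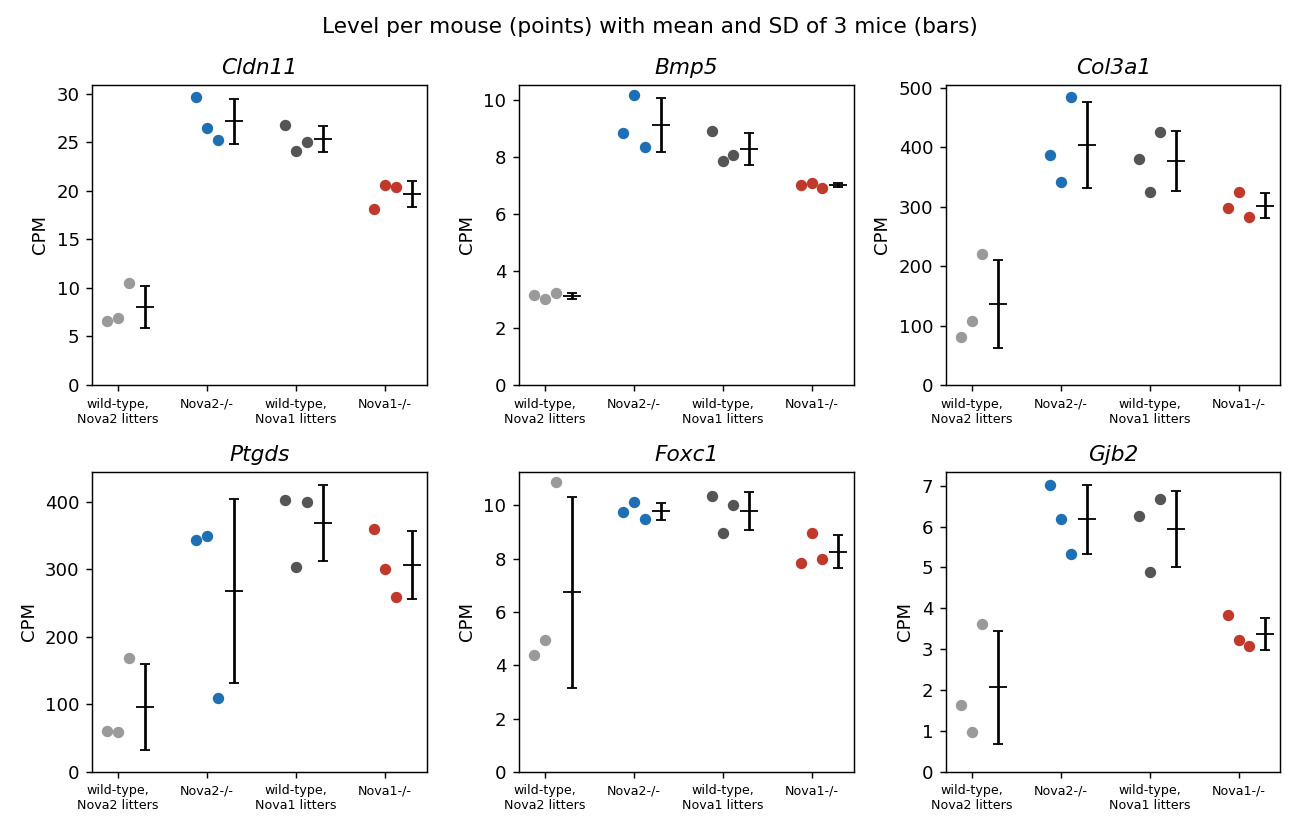
Level in CPM of 6 genes in each mouse (points) with the mean and SD of the 3 mice of each group (bars). Cldn11 and Bmp5 separate wild-type mice 1 to 3 from all others, Ptgds has 1 Nova2-/- mouse at 110 CPM among the low values, wild-type mouse 3 reaches the other groups for Foxc1, and Gjb2 is lower in Nova1-/- mice than in their littermates.

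Across roles, the median log2 fold changes in Nova2-/- mice were 1.50 for the fibrillar collagens, 1.12 for the other collagens, 0.74 for the glycoproteins, 1.31 for the proteoglycans, 1.42 for collagen processing, 1.01 for the BMP ligands, 0.63 for the IGF genes, 0.97 for the transcription factors, 1.31 for the retinoic acid genes and 1.34 for the transporters with Ptgds. The same medians in Nova1-/- mice were -0.26, -0.11, -0.09, -0.22, -0.16, -0.14, -0.14, -0.49, -0.48 and -0.22. Each role had a positive median in the first comparison and a negative one in the second.

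Differences of this size were also present between the 2 sets of wild-type mice. For 31 of the 42 genes every wild-type mouse of the Nova2 litters was below every wild-type mouse of the Nova1 litters, against 13.7% of all genes tested in both fits. Part of the genes were chosen for being lower in wild-type mice 1 to 3 than in Nova2-/- mice, which favours such a count. Nothing was therefore read from it, here or with a mouse left out. For 34 of 42 the Nova2-/- mice overlapped with the wild-type mice of the Nova1 litters. They lay wholly above them for 8 of 42, against 19.4% of all genes tested in both fits, and wholly below for 0, against 18.6%. Wild-type mouse 3 was the highest of mice 1 to 3 for 39 of 42 genes, from 4.62 times the mean of mice 1 and 2 for Slc22a6 to 0.85 times for Loxl1. Leaving out wild-type mouse 1, the counts of 32 and 31 genes without overlap stayed at 32 and 31, against 16.9% and 17.5% of all genes. Leaving out wild-type mouse 2, they were again 32 and 31, against 16.5% and 16.8%. Leaving out wild-type mouse 3, they were 40, against 22.3% of all genes, and 39, against 25.1%.

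The Nova2-/- mice also differed among themselves. In mouse 3, compared with the mean of mice 1 and 2, all 9 collagens were higher, at 1.10 times for Col6a1 to 1.70 times for Col5a1. Other roles were split. Of the proteoglycans, Dcn was at 1.12 times and Lum at 1.02 times, but Ogn at 0.65 times and Fmod at 0.61 times. In the same mouse Ptgds was at 0.32 times, Bmp4 at 0.52 times, Slc6a20a at 0.57 times and Aldh1a2 at 0.65 times. Nova2-/- mouse 3 was the highest of the 3 for 14 genes and the lowest for 24. Markers of bone and cartilage summed to 31.9 CPM in mouse 3 and to 19.3 and 18.8 CPM in mice 1 and 2, and those of border macrophages to 103 CPM against 135 and 131 CPM. Their part in these differences was not tested.

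Other genes of the same pathways, from lists that exclude the 42, were also counted in the Nova2 litters. Of 36 other collagens and matrix genes, 6 were called at FDR below 0.05, all higher: Col11a1, Col12a1, Sparc, Fbn2, Tnc and Lamb1. Of all genes tested, 0.695% were called higher. This comparison chose part of the 42, its calls depended on single mice, and the lists were drawn up with earlier results known. Nothing was therefore read from the numbers called in these lists. The log2 fold change was 0.94 ± 0.14 for Col12a1, a collagen of fibre surfaces, 0.74 ± 0.09 for the fibrillin gene Fbn2 and 0.39 ± 0.07 for the tenascin gene Tnc. The median of the 36 genes was 0.69 in Nova2-/- and -0.06 in Nova1-/-. Of 18 other collagen enzymes 2 were called, the lysyl hydroxylase gene Plod1 and the collagen chaperone gene Serpinh1, at 0.76 ± 0.12 and 0.92 ± 0.16, with a median of 0.30 over the 18. For 25 BMP receptors, antagonists and targets that were tested 0 were called, and the median was 0.06. For 15 other retinoic acid genes and 15 other mesenchymal transcription factors 0 were called, with medians of 0.27 and 0.78, and of 13 other IGF genes H19, which neighbours Igf2, was the 1 called, at 1.15 ± 0.14. In the Nova1 litters 0 genes of each of these lists were called, by edgeR's quasi-likelihood test.

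Markers of cell types that lie beside meningeal fibroblasts followed the pattern of the 42 genes to differing degrees, and some did not follow it. Markers of border macrophages, which live in the meninges and around vessels, summed to 34.8, 49.8 and 83.4 CPM in wild-type mice 1 to 3, to 103 to 135 CPM in Nova2-/- mice, to 99.8 to 109 CPM in wild-type mice 4 to 6 and to 91.3 to 105 CPM in Nova1-/- mice, the same order of groups as the 42 genes. Nova2-/- mice were above all their littermates for 4 of the 6 macrophage markers. Of all genes tested, 12.5% met this and 0.695% were called higher, the shares for each such count in the marker lists below. The lists are short, so nothing was read from these counts. Mural cell markers summed to 159 to 214 CPM in wild-type mice 1 to 3 and to 257 to 274 CPM in Nova2-/- mice, with 7 of 11 genes without overlap and the potassium channel subunit gene Abcc9 called (log2 fold change 0.55 ± 0.10), and 227 to 249 CPM in wild-type mice 4 to 6. Endothelial markers were at 287 to 359 CPM in wild-type mice 1 to 3 and at 381 to 407 CPM in Nova2-/- mice. In wild-type mice 4 to 6 they were at 293 to 301 CPM and did not share the high level of the 42 genes. The median log2 fold change of the 12 endothelial genes in Nova2-/- mice was 0.16, with 8 of 12 above 0. Nova2-/- mice were above all their littermates for 4 of the 12 and below all of them for 1. The VEGF receptor gene Kdr (0.78 ± 0.11) and the glucose transporter gene Slc2a1 (0.57 ± 0.08) were called. Mfsd2a went the other way, at 37.6 to 40.6 CPM in wild-type mice 1 to 3 and 29.6 to 36.1 CPM in Nova2-/- mice. Microglial markers summed to 75.8 to 86.4 CPM in wild-type mice 1 to 3 and to 88.9 to 106 CPM in Nova2-/- mice, but the median log2 fold change of these 10 genes was -0.02, with 4 of 10 above 0 and 3 of 10 without overlap. The part of these cells in the levels of the 42 genes was not tested. Markers of the choroid plexus, which also makes Ptgds and Igf2, varied in another way. They summed to 853, 1222 and 832 CPM in wild-type mice 1 to 3 and to 1565, 116 and 1334 CPM in Nova2-/- mice 1 to 3. In wild-type mice 4 to 6 they summed to 252, 1027 and 938 CPM, and in Nova1-/- mice 1 to 3 to 952, 127 and 894 CPM. Most of each sum was Ttr. The part of the choroid plexus in the levels of Ptgds and Igf2 was not tested. Markers of midbrain and hindbrain summed to at most 2.53 CPM in every mouse.

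**Figure D4:**
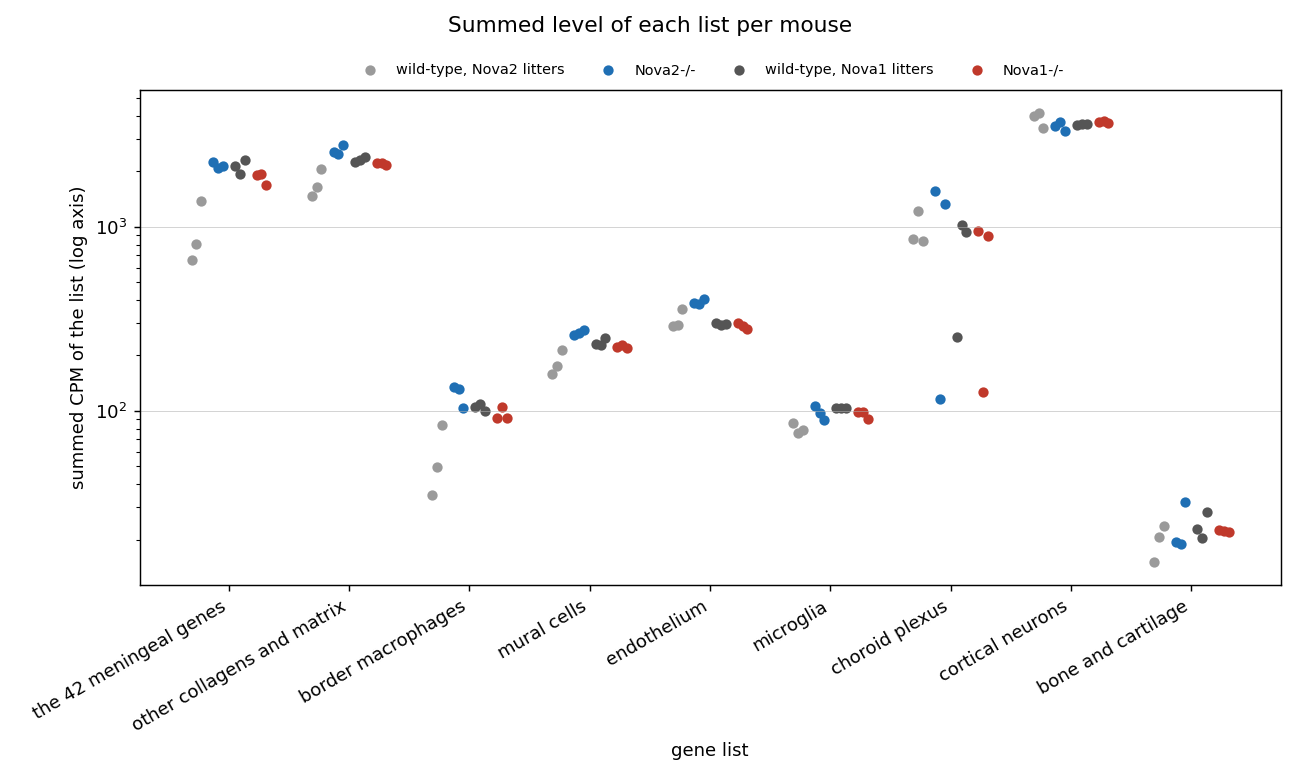
Summed CPM of each gene list in each mouse, on a log axis, with 4 groups of 3 mice. The 42 genes and the border macrophage markers are lowest in the wild-type mice of the Nova2 litters, at 659 to 1388 and 34.8 to 83.4 CPM. Cortical neuron markers lie between 3319 and 4162 CPM and are highest in wild-type mice 1 and 2, at 4020 and 4162 CPM. Choroid plexus markers vary within groups.

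Genes outside the list with the most similar pattern were ranked by the Pearson correlation, over 12 mice, of their log2(CPM + 0.5) with the median of the 42 genes, among 14433 genes with a mean of at least 1 CPM. The mice share their group differences, so the correlation describes the pattern and was not tested. The first was Adam12 at r = 0.991, and others near the top were Mrc1 at 0.983, A430107O13Rik at 0.978, Islr and Itih2 at 0.977, Aebp1 at 0.974, Hmcn1 at 0.972, Tln1 at 0.971 and Vtn at 0.969. Over the 6 mice of the Nova1 litters alone, where the groups differ little, r was 0.827 for Adam12, 0.867 for Mrc1 and 0.950 for A430107O13Rik, and 0.375 for Aebp1. Mrc1 and Vtn were also in the macrophage and mural marker lists. Of the 42 genes themselves, 34 had r of at least 0.8 with their common median, which includes each of them. The lowest were Loxl1 at -0.168, Col15a1 at 0.538, Igfbp2 at 0.568 and Zic1 at 0.608.

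The 42 genes lie on 17 chromosomes, and 4 pairs are within 200 kb of each other: Col3a1 and Col5a2, Col6a1 and Col6a2, Lum and Dcn, and Gjb2 and Gjb6. Of the 42 genes, 0 were in the deposited list of NOVA2-dependent splicing events, against 2.19% of all genes in the count table, so nothing was read from the 0. RefSeq promoters (GRCm38.p6) were matched for 32 of the 42 genes, and the 250 bases before the start are shown for 4 genes on which the comparisons turn, the junction gene Cldn11 (chr3:31149670-31149919), the ligand gene Bmp5 (chr9:75775115-75775364) and the collagen genes Col1a2 (chr6:4505368-4505617) and Col3a1 (chr1:45311288-45311537), all on the plus strand. Capitals mark 3 motifs searched on both strands, the GC box (GGGCGG), the box known by its letters CCAAT, and the TATA box (spelled as TATAAA). Capitals reading ATTGG are the second of these on the other strand.
Cldn11: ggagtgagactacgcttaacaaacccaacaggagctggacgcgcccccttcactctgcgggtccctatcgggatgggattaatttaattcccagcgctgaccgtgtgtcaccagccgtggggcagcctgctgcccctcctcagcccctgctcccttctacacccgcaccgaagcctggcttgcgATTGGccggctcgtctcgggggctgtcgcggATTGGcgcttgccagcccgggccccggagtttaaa
Bmp5: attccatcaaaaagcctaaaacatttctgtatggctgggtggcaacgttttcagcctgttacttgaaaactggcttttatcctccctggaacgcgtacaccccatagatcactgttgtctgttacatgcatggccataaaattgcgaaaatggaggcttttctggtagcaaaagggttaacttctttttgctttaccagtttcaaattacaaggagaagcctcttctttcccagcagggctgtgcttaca
Col1a2: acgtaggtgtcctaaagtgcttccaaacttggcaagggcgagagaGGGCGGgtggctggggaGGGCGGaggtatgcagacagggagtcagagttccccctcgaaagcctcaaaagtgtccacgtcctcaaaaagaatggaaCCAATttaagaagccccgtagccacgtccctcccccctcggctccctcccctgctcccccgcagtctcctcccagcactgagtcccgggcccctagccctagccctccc
Col3a1: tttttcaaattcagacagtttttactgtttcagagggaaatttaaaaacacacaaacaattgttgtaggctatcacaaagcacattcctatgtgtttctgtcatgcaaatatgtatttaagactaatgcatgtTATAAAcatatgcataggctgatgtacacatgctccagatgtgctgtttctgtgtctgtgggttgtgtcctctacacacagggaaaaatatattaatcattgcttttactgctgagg

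No letters shared by all 4 were marked, since Bmp5 held none of the 3 motifs and Col3a1 held TATAAA alone. In windows of 300 bases, which reach 50 bases past the start, GGGCGG was found in 19 of 32 genes (59.4%), against 38.2% of all genes with a promoter and 35.7% of all promoters. CCAAT was found in 12 of 32 (37.5%), against 41.1% of all genes and 37.4% of all promoters, and TATAAA in 3 of 32 (9.38%), against 15.7% and 13.6%. The median GC content was 59.2% over the 40 promoters of these 32 genes and 52.7% over all promoters. A match is a string of letters and was not tested as a binding site.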

How the data were processed

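RNA was extracted with Trizol from E18.5 cortex, depleted of ribosomal RNA and sequenced on an Illumina HiSeq instrument after TruSeq library preparation, which does not mark strand. The authors deposited expected counts per gene symbol with mm9 as genome build; the counting program is not given in the sources used here. The deposited log2 fold changes and the deposited FDR columns (adjusted p-values) hold the authors' own comparisons and were not used. Midbrain and hindbrain samples were not analysed here.

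Expected counts were rounded. CPM used TMM scaling over all 12 cortices. Each knockout was compared with the 3 wild-type mice of its litters in edgeR, with the quasi-likelihood test (version 4.0.16, R 4.3.3, TMM, filterByExpr, Benjamini-Hochberg adjustment over all genes tested, FDR below 0.05), which was tested on simulated data. Standard errors belong to the log2 fold changes of that fit, and exon lengths came from the GENCODE annotation of the same build. DESeq2 1.42.0, other filters and normalization, a replicate block, all 12 cortices in 1 fit, and leaving out each mouse were alternatives. P-values measure the spread between the mice, and a count carries counting error besides. The genes named are all 42, the called genes of each other list and up to 4 further genes of it, the targeted genes and the 10 most similar patterns, of which 1 is not reported here. The 42 genes and all lists were chosen with earlier results of these data known.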

Additional observations from a re-analysis of the deposited data

Results flagged for a closer look

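For 29 of the 42 genes every Nova2-/- mouse was above the mean of its wild-type littermates and every Nova1-/- mouse was below the mean of its own. The share of all genes that met this was not counted, so nothing was read from the 29. The difference between the 2 effects was not tested, and the Nova2 side of it helped to choose the genes. As the log2 fold change in Nova2-/- minus that in Nova1-/-, it was 1.85 for Col1a2, 1.89 for Col3a1, 1.22 for Col5a2, 1.36 for Col6a2 and 1.98 for Col6a3 among the collagens. Among the other matrix and processing genes it was 0.66 for Fbln1, 1.87 for Sned1, 1.56 for Lum, 1.55 for Dcn, 1.25 for Ogn, 1.51 for Fmod, 1.71 for Pcolce and 1.78 for Adamts12. Among the signals it was 1.63 for Bmp4, 1.79 for Bmp5 and 1.17 for Igf2, and among the transcription factors 0.77 for Foxc1, 1.88 for Foxc2, 1.29 for Foxd1, 1.74 for Tbx18 and 1.65 for Twist1. Among the retinoic acid genes, the transporters and Ptgds it was 1.82 for Aldh1a2, 1.75 for Crabp2, 1.73 for Slc22a6, 1.51 for Slc6a13 and 1.75 for Ptgds, and among the junction genes 2.12 for Cldn11, 2.35 for Gjb2 and 1.91 for Gjb6. The wild-type mice of the 2 litter sets differed by 2.24 times in the summed level, so a difference between the effects cannot be told apart from a difference between the sets of wild-type mice.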

How the results depend on the processing

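The number of genes called in the Nova2 litters was 11, with 166 over all genes, and was 17 of 200 with no filter, 23 of 806 by DESeq2 and 30 of 1334 with all 12 cortices in 1 fit. Leaving out 1 mouse it was 0 to 35, against 7 to 1433 over all genes. With a log2 fold change of at least 1 the number called was 10, with 32 called higher over all genes. It was 19 of 90 by DESeq2 and 25 of 131 with all 12 cortices. Leaving out 1 mouse it was 0 to 34, against 3 to 227 called higher over all genes. The same genes' median log2 fold change of 1.24 ran from 0.98 to 1.66 leaving out 1 mouse and from 1.22 to 1.30 otherwise. The summed ratio of 2.27 ran from 1.97 to 2.95 leaving out 1 mouse, and that of the wild-type sets from 1.94 to 2.91, alternatives chosen after seeing the data, as were those for the genes without overlap (32 to 40, and 31 to 39). In the Nova1 litters DESeq2 called 2 and every other alternative called 0. Those others had 4 to 20 of 42 at an unadjusted p below 0.05 by edgeR's quasi-likelihood test. The matching counts over all genes were not made, so nothing was read from these. The median of -0.23 in the Nova1 litters ran from -0.28 to -0.16 leaving out 1 mouse. Leaving out 1 mouse turned the sign of 7 genes there: log2 fold changes ran from -0.30 to 0.10 for Col1a1, -0.14 to 0.07 for Col6a1, -0.17 to 0.10 for Col15a1, -0.08 to 0.06 for Fn1, -0.17 to 0.08 for Lox, -0.08 to 0.06 for Bmp6 and -0.13 to 0.03 for Bmp7. The cause of these changes was not tested. With the replicate number as a block, 15 of the 42 genes were called in the Nova2 litters, against 220 over all genes. Of the 15, 14 had a log2 fold change of at least 1, against 43 called higher over all genes, and the median of the 42 was 1.30. Same-numbered mice correlated at 0.137, 0.0477 and 0.225, and mice of other numbers at -0.243 to 0.161. Wild-type mice 2 and 3 correlated best with the Nova2-/- mouse of their own number, but wild-type mouse 1 with Nova2-/- mouse 2. The labels do not state pairs, and these values do not settle whether the numbers mark them. The main comparison did not take the numbers as pairs. The groups of the Nova1 litters share no numbers. Genes with few counts, such as Foxc2 and Twist1, are limited by depth.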
